A study of Homo sapiens with 9 samples.

Results

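RNA levels of 9 genes for RNA polymerase II kinases other than CDK9, and for their cyclins, were examined in SKOV3 cells, an ovarian cancer cell line. The genes were chosen by name, as the kinase, cyclin and assembly subunits of 3 complexes: CDK7 with CCNH and MNAT1, CDK8 or CDK19 with CCNC, and CDK12 or CDK13 with CCNK. All 9 were found among the 58735 genes of the count table, and all 9 were among the 16350 genes that passed the filter on low counts. RNA was sequenced from cells expressing WT CDK9 (WT CDK9 cells), from the same kind of cells after 24 h with an ALK inhibitor (ALK inhibitor-treated cells), and from cells expressing CDK9 with phenylalanine in place of tyrosine 19 (Tyr19Phe CDK9 cells), with 3 libraries per group. Stable lines of the study were made by putting WT or Tyr19Phe CDK9 back into cells whose endogenous CDK9 had been depleted by short hairpin RNA. The sequenced cells are described only as expressing WT or Tyr19Phe CDK9, so depletion in all groups is not stated for them. The inhibitor and its dose are not named for the sequencing experiment, and neither is the number of clones per line. Nothing says that the 3 libraries of a group came from separate cultures, so the p-values given here measure only the spread between these libraries.

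The C-terminal domain (CTD) of the largest subunit of RNA polymerase II, encoded by POLR2A, is a long array of repeats that kinases phosphorylate as transcription proceeds. CDK7, with cyclin H and the assembly factor MAT1, is part of the general factor TFIIH. It phosphorylates the CTD at promoters and also activates other cyclin-dependent kinases, CDK9 among them. CDK8 and its paralogue CDK19 bind cyclin C in the kinase module of Mediator, the complex that connects transcription factors with the polymerase. CDK12 and CDK13 bind cyclin K, act during elongation and are known for the expression of long genes and of DNA repair genes. CDK9 with cyclin T forms P-TEFb, which releases paused polymerase. The question put to these genes was whether their RNA differed where CDK9 could not be phosphorylated on Tyr19 or where ALK, the kinase that phosphorylates it, was inhibited.

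The 6 libraries of WT CDK9 and ALK inhibitor-treated cells held between 18169050 and 20974903 counts each, and the 3 Tyr19Phe libraries held between 26485891 and 29320184. ALK inhibitor replicate 2 and Tyr19Phe replicate 3 stood apart from their groups, with 19944 and 20635 genes detected against 21911 to 21915 and 22609 to 22744 in the other libraries of their groups, so values that moved most without them are also given without them. All 5 markers of the cell line (ERBB2, KRT8, KRT18, EPCAM and PAX8) were expressed, whereas the leukocyte gene PTPRC, the endothelial gene PECAM1 and the liver gene ALB had at most 8 counts in any library and the smooth muscle gene MYH11 at most 33. With Tyr19Phe CDK9, KRT8 (log2 fold change 0.38, edgeR adjusted p = 5.11e-10) and KRT18 (0.39, 1.01e-06) were called higher, EPCAM (−0.82, 1.75e-05) and ERBB2 (−0.29) were called lower, and PAX8 was at −0.017 and not called. The part of these differences in the values of the 9 genes was not tested. Levels are given as CPM, the counts of a gene scaled to the same library total after TMM normalization by edgeR.

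For the 9 genes, the counts that passed the test were near the shares over all tested genes, which are given beside them. In ALK inhibitor-treated cells 0 of 9 differed from WT CDK9 cells at an adjusted p under 0.05, by edgeR's quasi-likelihood test with Benjamini-Hochberg adjustment over all tested genes. DESeq2 also called 0, and 2 had an unadjusted p under 0.05. Of all tested genes, 4.55% were called in this comparison (1.82% higher and 2.73% lower), 6.63% of those with a DESeq2 adjusted p were called by DESeq2, and 15.1% had an unadjusted p under 0.05. In Tyr19Phe CDK9 cells 1 of 9, CCNC, was called lower than in WT CDK9 cells, where 18.0% of all tested genes were called (7.61% higher and 10.4% lower), and 3 of 9 had an unadjusted p under 0.05 against 29.0%. Between the Tyr19Phe CDK9 and the ALK inhibitor-treated cells 1 of 9, CDK19, was called, and it was lower in Tyr19Phe CDK9 cells. In that comparison 20.7% of all tested genes were called (9.57% higher and 11.1% lower), and 4 of 9 members had an unadjusted p under 0.05 against 31.5%. In bulk RNA a lower level in every cell and a smaller number of cells with that level cannot be told apart.

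The sizes of the changes are given beside those of all tested genes. Without regard to sign, the 9 log2 fold changes had a median of 0.071 with the inhibitor, 0.13 with Tyr19Phe CDK9 and 0.081 between these groups, beside 0.13, 0.18 and 0.20 over all tested genes. Each of the 9 had at least 327 counts in every library, whereas the tested genes include some with far fewer counts and less precise values. These medians are therefore not like for like. The largest absolute value was 0.25, 0.28 and 0.33 in the 3 comparisons. Groups of 3 libraries did not overlap for 2 of 9 genes with the inhibitor, for 2 of 9 with Tyr19Phe CDK9 and for 3 of 9 between these groups, against 19.6%, 32.6% and 34.4% of all tested genes. The comparisons share libraries, so their counts are not independent of each other.

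**Figure D1:**
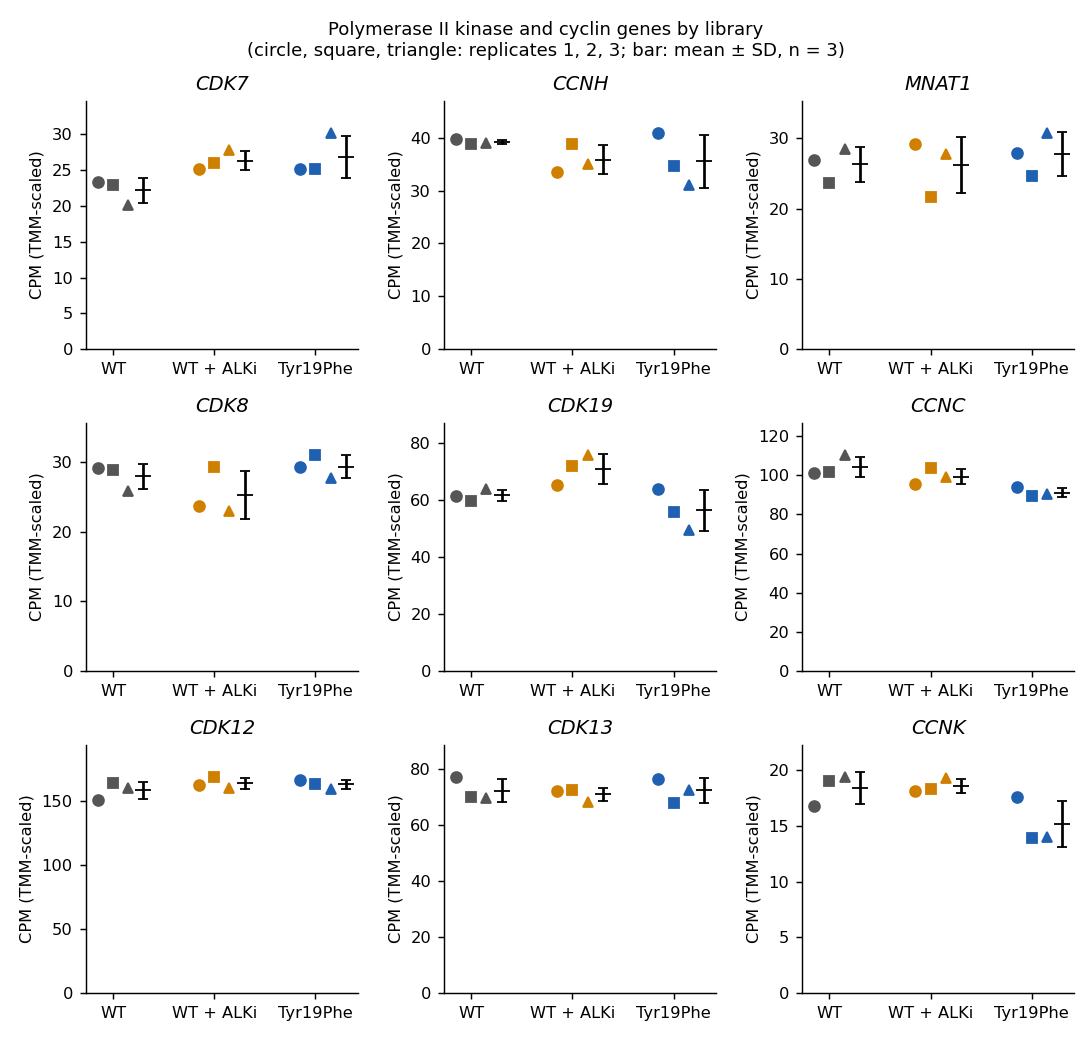
Level of each gene in each library, in TMM-scaled CPM on axes that start at 0, for WT CDK9 cells, WT CDK9 cells with ALK inhibitor and Tyr19Phe CDK9 cells, with the mean ± SD of 3 libraries as bars. CCNC was lower in all 3 Tyr19Phe libraries than in any WT library, and CDK19 was lower in all 3 Tyr19Phe libraries than in any inhibitor-treated library.

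**Figure D2:**
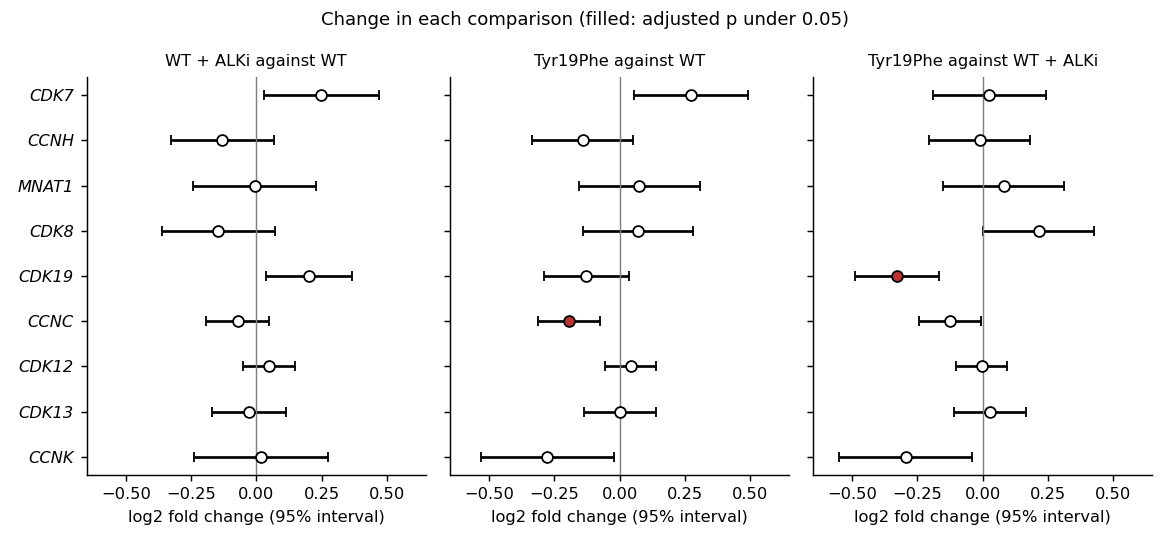
Log2 fold change of each gene in the 3 comparisons with its 95% interval, from the quasi-likelihood fit over all 9 libraries. The filled points are the calls at an adjusted p under 0.05, CCNC in Tyr19Phe against WT CDK9 cells and CDK19 in Tyr19Phe CDK9 against inhibitor-treated cells.

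CDK7, the kinase of the TFIIH complex, had the same direction in both comparisons with WT CDK9 cells, which share the WT libraries. Its level was 23.4, 22.9 and 20.1 CPM in WT CDK9 cells, 25.2, 26.0 and 27.8 CPM with ALK inhibitor and 25.1, 25.2 and 30.1 CPM in Tyr19Phe CDK9 cells. All 6 libraries of the latter groups lay above the 3 WT libraries, and the highest value was that of Tyr19Phe replicate 3. The log2 fold change was 0.25 with the inhibitor (SE 0.11, 95% interval 0.028 to 0.47, edgeR adjusted p = 0.252) and 0.27 with Tyr19Phe CDK9 (SE 0.11, 95% interval 0.057 to 0.49, adjusted p = 0.0725), so neither difference passed the test. Without Tyr19Phe replicate 3 the second value was 0.19, with an adjusted p of 0.330. The direct difference between the Tyr19Phe CDK9 and the inhibitor-treated cells was 0.026 on the log2 scale, with a 95% interval from −0.19 to 0.24.

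CCNH encodes cyclin H, the partner of CDK7. It was at 39.7, 38.8 and 39.0 CPM in WT CDK9 cells, at 33.5, 38.9 and 35.1 CPM with ALK inhibitor and at 40.8, 34.7 and 31.0 CPM in Tyr19Phe CDK9 cells. The WT libraries were close together (coefficient of variation 1.20%), whereas the Tyr19Phe libraries spread to both sides of them (14.0%). The log2 fold change was −0.13 (95% interval −0.33 to 0.067) with the inhibitor and −0.14 (95% interval −0.33 to 0.052) with Tyr19Phe CDK9, with edgeR adjusted p-values of 0.602 and 0.352. Without Tyr19Phe replicate 3 the Tyr19Phe value of CCNH was −0.046 (adjusted p = 0.839), and without Tyr19Phe replicate 1 it was −0.25 (adjusted p = 0.0928). Reads on CCNH may not all be its own, since 21.2% of its exonic bases in GENCODE release 44 are also exonic on the opposite strand, 12.9% in RASA1, and the strand setting of the counting is not given in the sources used here. RASA1 had log2 fold changes of 0.23 (adjusted p = 0.0179) and 0.32 (adjusted p = 0.000122) in these comparisons, the opposite sign to those of CCNH. Its call with the inhibitor was lost without WT replicate 1, WT replicate 3 or ALK inhibitor replicate 1 (adjusted p between 0.0563 and 0.111). The part of the shared bases in the CCNH counts was not tested.

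MNAT1 encodes MAT1, which assembles CDK7 with cyclin H. Its levels were 26.9, 23.6 and 28.5 CPM in WT CDK9 cells, 29.1, 21.6 and 27.9 CPM with ALK inhibitor and 28.0, 24.6 and 30.7 CPM in Tyr19Phe CDK9 cells, and the 3 groups overlapped throughout. The lowest library was ALK inhibitor replicate 2. The log2 fold change was −0.0058 (95% interval −0.24 to 0.23) with the inhibitor and 0.075 (95% interval −0.16 to 0.31) with Tyr19Phe CDK9. The edgeR adjusted p-values were 0.994 and 0.732. Without ALK inhibitor replicate 2 the value of MNAT1 with the inhibitor was 0.12 (adjusted p = 0.778), and without Tyr19Phe replicate 3 its value with Tyr19Phe CDK9 was 0.0030 (adjusted p = 0.995).

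Among the 7 genes of the TFIIH core, which opens DNA at promoters and repairs it, the inhibitor comparison gave 1 call, which was lower, and the Tyr19Phe comparison gave 0. The called gene was ERCC2, which encodes the helicase XPD that anchors the CDK7 complex to TFIIH. ERCC2 was at 63.4, 63.1 and 59.3 CPM in WT CDK9 cells, at 47.0, 48.9 and 45.9 CPM with ALK inhibitor and at 59.6, 57.3 and 58.8 CPM in Tyr19Phe CDK9 cells. The inhibitor-treated libraries lay below all others. ERCC2 fell by 0.39 on the log2 scale with the inhibitor (SE 0.072, edgeR adjusted p = 0.000491), while its change with Tyr19Phe CDK9 was −0.080 (adjusted p = 0.502), and the difference between these groups passed the test (0.31, adjusted p = 0.00159). The 7 genes had medians of −0.044 and 0.038 in these comparisons, beside −0.0010 and 0.0035 over all tested genes.

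CDK19 and CDK8 are the alternative kinases of the Mediator module. The upstream sequences of this pair are shown because CDK19 was the gene whose levels in the ALK inhibitor-treated and the Tyr19Phe CDK9 cells differed by the test while those of CDK8 did not. They come from RefSeq (GRCh38.p14), read 5′ to 3′ on the strand of each gene, and end before the first base that the count table or GENCODE release 44 assigns to the gene, at chr6:110815959-110816105 (minus strand, 147 bases) and chr13:26253879-26254103 (plus strand, 225 bases). Capitals mark CCAAT in the CDK19 sequence, and CACGTG followed by GGGCGG in the CDK8 sequence.
CDK19: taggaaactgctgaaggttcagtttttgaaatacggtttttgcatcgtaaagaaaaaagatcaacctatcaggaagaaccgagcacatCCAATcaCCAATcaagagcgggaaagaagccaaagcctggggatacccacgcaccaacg
CDK8: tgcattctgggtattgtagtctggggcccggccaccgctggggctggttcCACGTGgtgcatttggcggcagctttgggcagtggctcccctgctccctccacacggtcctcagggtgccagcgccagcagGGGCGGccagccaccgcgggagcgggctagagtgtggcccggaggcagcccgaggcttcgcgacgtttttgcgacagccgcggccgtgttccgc

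The motifs were searched on both strands of the 250 bases before the RefSeq start, in all 9 members and in 35116 windows of the same length. CCAAT was present in 3 of 9 members (CDK19, CCNC and CCNK) and in 32% of all windows. GGGCGG was present in 5 of 9 members and in 42.6% of windows, CACGTG in 2 of 9 and 6.34%, and TGACG, which can overlap CACGTG, in 5 of 9 and 21.2%. TATAAA and CCGGAAG were in 0 of 9 members, against 10.7% and 8.52% of windows, and AAGATGG was in 1 of 9 against 3.7%. CDK19 held 3 copies of CCAAT in its window, 2 of them in the printed stretch, and CDK8 held none. GGGCGG was in the windows of both genes, with 1 copy each, and that of CDK19 lies outside the printed stretch. The CDK19 window also held 1 copy of TGACG outside the printed stretch. A link between these motifs and the RNA levels of the genes was not tested.

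CDK19 was at 61.5, 59.8 and 63.8 CPM in WT CDK9 cells, at 65.3, 71.8 and 75.9 CPM with ALK inhibitor and at 64.0, 55.9 and 49.5 CPM in Tyr19Phe CDK9 cells. The inhibitor-treated libraries lay above all others, and the Tyr19Phe libraries overlapped the WT libraries. Against WT CDK9 cells neither group passed the test, with log2 fold changes of 0.20 (SE 0.081, 95% interval 0.037 to 0.37, edgeR adjusted p = 0.195) with the inhibitor and −0.13 (SE 0.080, 95% interval −0.29 to 0.037, adjusted p = 0.316) with Tyr19Phe CDK9. The direct difference between the groups did, and it is the difference between these effects. CDK19 RNA in Tyr19Phe CDK9 cells was 0.796-fold that in ALK inhibitor-treated cells, a log2 difference of −0.33 (SE 0.080, 95% interval −0.49 to −0.17, edgeR adjusted p = 0.00279). The call was kept in each of the 6 fits that left out 1 library, with adjusted p-values from 0.000320 to 0.0445. The log2 difference was −0.24 without Tyr19Phe replicate 3 and −0.32 without ALK inhibitor replicate 2. Without Tyr19Phe replicate 3 the value of CDK19 against WT CDK9 cells was −0.035 (adjusted p = 0.859).

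CDK8 was at 29.1, 28.9 and 25.9 CPM in WT CDK9 cells, at 23.7, 29.3 and 22.9 CPM with ALK inhibitor and at 29.3, 31.0 and 27.7 CPM in Tyr19Phe CDK9 cells. All groups overlapped, and ALK inhibitor replicate 2 was at the level of the WT libraries. The log2 fold changes were −0.15 (95% interval −0.36 to 0.072) and 0.070 (95% interval −0.14 to 0.28), with edgeR adjusted p-values of 0.597 and 0.726. The direct difference between the Tyr19Phe CDK9 and the inhibitor-treated cells was 0.22 (95% interval 0.0024 to 0.43, adjusted p = 0.153), opposite in sign to that of CDK19. Without ALK inhibitor replicate 2 this difference was 0.33 and passed the test (adjusted p = 0.0352), while the inhibitor value of CDK8 against WT CDK9 cells was then −0.26 and did not (adjusted p = 0.289).

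The ratio of CDK8 to CDK19 counts within a library does not depend on the scaling. On the log2 scale it was −1.08, −1.05 and −1.30 in WT CDK9 cells, −1.46, −1.30 and −1.73 with ALK inhibitor and −1.13, −0.85 and −0.84 in Tyr19Phe CDK9 cells. The Tyr19Phe libraries did not overlap the inhibitor-treated ones and overlapped the WT libraries. The mean was −1.14 ± 0.14, −1.49 ± 0.22 and −0.94 ± 0.17 (SD, n = 3), and the difference between the Tyr19Phe CDK9 and the inhibitor-treated cells was 0.56. By two-sided exact permutation tests, p = 0.1 for this difference, which is the smallest p that 3 libraries against 3 allow, p = 0.2 for the inhibitor and p = 0.3 for Tyr19Phe CDK9 against WT CDK9 cells. Over the 6 ratio tests made, each of these 3 values became 0.6 after adjustment.

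CCNC encodes cyclin C, which both Mediator kinases need. It was at 101, 102 and 110 CPM in WT CDK9 cells, at 95.7, 104 and 99.0 CPM with ALK inhibitor and at 93.9, 89.2 and 90.4 CPM in Tyr19Phe CDK9 cells. The Tyr19Phe libraries lay below all 6 others, and the inhibitor-treated libraries overlapped the WT libraries. CCNC fell by 12.7% in Tyr19Phe CDK9 cells, a log2 fold change of −0.20 (SE 0.058, 95% interval −0.31 to −0.076, edgeR adjusted p = 0.0163). The call was lost without WT replicate 3, the highest of all libraries (−0.15, adjusted p = 0.138), without Tyr19Phe replicate 2 (−0.18, adjusted p = 0.0756) or without Tyr19Phe replicate 3 (−0.18, adjusted p = 0.0624). With the inhibitor the log2 fold change was −0.071 (95% interval −0.19 to 0.049, adjusted p = 0.657), and the direct difference between the groups was −0.12 (95% interval −0.24 to −0.0051, adjusted p = 0.140), so a difference between these effects was not shown. Of the exonic bases of CCNC, 13.1% are shared with TSTD3 on the opposite strand.

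Of the 4 other subunits of the Mediator kinase module, 2 were called lower with Tyr19Phe CDK9, and 0 were called with the inhibitor. Over all tested genes, 10.4% were called lower with Tyr19Phe CDK9 and 4.55% in either direction with the inhibitor. MED13, the subunit that connects the module with the rest of Mediator, was at 164, 159 and 151 CPM in WT CDK9 cells, at 160, 155 and 156 CPM with ALK inhibitor and at 139, 132 and 134 CPM in Tyr19Phe CDK9 cells. Its Tyr19Phe libraries lay below all 6 others. MED13 fell by 0.23 on the log2 scale (SE 0.049, edgeR adjusted p = 0.00102), and its paralogue MED13L fell by 0.18 (SE 0.052, adjusted p = 0.0152). The direct differences from the inhibitor-treated cells were −0.22 and −0.19, with adjusted p-values of 0.00136 and 0.00661. The MED13L call against WT CDK9 cells was lost without WT replicate 1, WT replicate 3 or Tyr19Phe replicate 3 (adjusted p between 0.0636 and 0.0898), and that of MED13 was kept in all 6 such fits. MED12, which activates the kinase through cyclin C, had log2 fold changes of 0.11 and −0.032 and was not called. The 4 subunits had medians of 0.065 and −0.20 in the comparisons with WT CDK9 cells, beside −0.0010 and 0.0035 over all tested genes. These medians include MED12L, which had only 11 to 34 counts per library. Its Tyr19Phe value was −0.57 (SE 0.53) and not called.

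CDK12 was the member with the most counts, between 2942 and 4915 per library, and with the narrowest intervals. It was at 151, 164 and 160 CPM in WT CDK9 cells, at 162, 169 and 160 CPM with ALK inhibitor and at 166, 163 and 159 CPM in Tyr19Phe CDK9 cells. All 3 groups overlapped. The log2 fold change was 0.047 (95% interval −0.052 to 0.15) with the inhibitor, 0.043 (95% interval −0.056 to 0.14) with Tyr19Phe CDK9 and −0.0047 (95% interval −0.10 to 0.094) between these groups.

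CDK13, its paralogue, was at 77.2, 69.9 and 69.9 CPM in WT CDK9 cells, at 72.2, 72.5 and 68.2 CPM with ALK inhibitor and at 76.6, 67.9 and 72.6 CPM in Tyr19Phe CDK9 cells, also with overlap of all groups. Its log2 fold changes were −0.028 (95% interval −0.17 to 0.11), 0.00080 (95% interval −0.14 to 0.14) and 0.029 (95% interval −0.11 to 0.17) in the same order. For both kinases the intervals lay within 0.17 of 0 on the log2 scale in all 3 comparisons. The log2 ratio of CDK12 to CDK13 counts was 1.13 ± 0.14, 1.21 ± 0.033 and 1.17 ± 0.081 (SD, n = 3) in the 3 groups, with two-sided exact permutation p-values of 0.6, 0.8 and 0.6.

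CCNK encodes cyclin K, the partner of both kinases, and had the fewest counts of the 9 genes (327 to 519). It was at 16.777, 18.999 and 19.401 CPM in WT CDK9 cells, at 18.2, 18.3 and 19.3 CPM with ALK inhibitor and at 17.6, 13.9 and 14.0 CPM in Tyr19Phe CDK9 cells. Tyr19Phe replicates 2 and 3 lay below all other libraries, and replicate 1 lay within the WT libraries. The log2 fold change with Tyr19Phe CDK9 was −0.28 (SE 0.12, 95% interval −0.53 to −0.023, edgeR adjusted p = 0.131), and the direct difference from the inhibitor-treated cells was −0.29 (SE 0.12, 95% interval −0.55 to −0.041, adjusted p = 0.0949). Neither passed the test, although both did without Tyr19Phe replicate 1 (−0.40, adjusted p = 0.0477, and −0.42, adjusted p = 0.0323). Without Tyr19Phe replicate 3 the values were −0.22 (adjusted p = 0.357) and −0.24 (adjusted p = 0.284). With the inhibitor the log2 fold change was 0.018 (95% interval −0.24 to 0.27).

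CCNK is the member whose counts are least certain. In GENCODE release 44, 59.5% of its exonic bases are also exonic in CCDC85C on the opposite strand. CCDC85C had means of 160, 119 and 139 CPM in the WT CDK9, inhibitor-treated and Tyr19Phe CDK9 cells, with log2 fold changes of −0.42 (edgeR adjusted p = 3.62e-06) and −0.20 (adjusted p = 0.0119). In the same comparisons CCNK had log2 fold changes of 0.018 and −0.28. The part of these shared bases in the CCNK counts was not tested.

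Only 4 of the genes named in textbooks as dependent on CDK12 were looked at, and none passed the test. They were BRCA1, ATR, FANCD2 and FANCI, which serve homologous recombination, checkpoint signalling and the repair of DNA crosslinks. By edgeR 0 of 4 were called with the inhibitor, with Tyr19Phe CDK9 or between these groups. Of all tested genes, 4.55%, 18.0% and 20.7% were called in these comparisons. The log2 fold changes of the 4 genes lay between −0.047 and 0.094 over the 3 comparisons, with medians of 0.0020, 0.014 and 0.027. For these and the lists of the TFIIH core, the Mediator kinase module, other CDKs and CTD phosphatases, each count of 0 was also 0 at an unadjusted p under 0.05 and with DESeq2. POLR2A, whose product carries the CTD, was at 231 ± 9.22 CPM in WT CDK9 cells, at 229 ± 12.2 CPM with the inhibitor and at 230 ± 9.10 CPM in Tyr19Phe CDK9 cells (SD, n = 3), with log2 fold changes of −0.0091 and −0.0030.

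Other CDKs and cyclins of transcription and splicing gave 0 calls of 7 with the inhibitor and 1 of 7 with Tyr19Phe CDK9. Over all tested genes, 4.55% and 18.0% were called in these comparisons. These shares also stand beside the counts of phosphatase and P-TEFb genes below. CCNL2, cyclin L2, a partner of the splicing-associated CDK11 kinases, rose by 0.21 on the log2 scale in Tyr19Phe CDK9 cells (SE 0.051, edgeR adjusted p = 0.00238), from 188, 175 and 194 CPM to 219, 199 and 227 CPM. With the inhibitor it was at 172, 177 and 175 CPM and not called. The 7 genes had medians of −0.025 and 0.054 in the comparisons with WT CDK9 cells. CDK11A and CDK11B are near-identical copies whose reads could have been divided between them, so their values are uncertain. Among 10 phosphatases of the CTD and their adaptors, 0 were called with the inhibitor and 1 with Tyr19Phe CDK9, RPRD1A, a CTD-binding adaptor, which fell by 0.22 on the log2 scale (SE 0.051, edgeR adjusted p = 0.00197). The Tyr19Phe count of this list was 2 without WT replicate 2 or without Tyr19Phe replicate 1, and 3 at an unadjusted p under 0.05. Their medians were −0.023 and 0.013. CDK9 itself, whose counts do not separate the introduced from the endogenous gene, was at 48.6 ± 1.03, 45.6 ± 1.77 and 55.0 ± 3.94 CPM (SD, n = 3) in the WT CDK9, inhibitor-treated and Tyr19Phe CDK9 cells. Of the P-TEFb genes 0 of 3 were called against WT CDK9 cells, also with DESeq2, and 1 (CDK9 with Tyr19Phe CDK9) had an unadjusted p under 0.05. CDK9 was called between the latter groups (log2 0.27, edgeR adjusted p = 0.00961), a call lost without ALK inhibitor replicate 1 or Tyr19Phe replicate 3 (adjusted p = 0.0541 and 0.0794), and CCNT1, cyclin T1, was called there as well (−0.16, adjusted p = 0.0438), while CCNT2 was not. The CCNT1 call was lost without replicate 1 or 2 of the inhibitor-treated cells or replicate 1 or 3 of the Tyr19Phe CDK9 cells (adjusted p between 0.0784 and 0.194), and in 3 of 8 other settings, namely upper-quartile scaling (0.0628), no filter on low counts (0.0653) and a fit of the compared groups alone (0.0521).

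Levels of the 9 genes were compared with each other per kilobase of the length listed in the count table. CCNC was highest, with a mean of 17.1 CPM per kilobase over the 9 libraries, followed by CDK12 (12.7), CDK7 (10.4), CDK19 (8.42), CDK8 (7.78), MNAT1 (6.93), CCNH (6.07), CDK13 (2.86) and CCNK (2.12 CPM per kilobase). CCNC, CDK13 and CCNK overlapped none of the other members over the 9 libraries. From CDK12 down to CCNH the range of each member over the 9 libraries overlapped that of its neighbour in the order. The overlap of CDK7 with CDK12 came only from Tyr19Phe replicate 3, where CDK7 was at 12.5 CPM per kilobase. Differences between neighbours within a library were not tested. The level per kilobase of CDK12 was 3.84 to 4.72 times that of CDK13, and that of CDK19 was 0.843 to 1.56 times that of CDK8.

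Cyclins were not uniformly above or below their kinases. Cyclin C stood at 1.77 to 2.65 times CDK8 per kilobase, whereas cyclin K was the lowest of the 9 and lay below both of its kinases in every library. The level of CCNK is uncertain, since 59.5% of its exonic bases are shared with CCDC85C on the opposite strand. Without the strand setting it is not known how reads on these bases were counted, so its place in the order may not be that of its RNA. The order depends on the length used. With the longest annotated transcript in place of the listed length, 5 of 9 members kept their rank, CCNH moved from rank 7 to 4, MNAT1 from 6 to 5, CDK19 from 4 to 6 and CDK8 from 5 to 7.

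**Figure D3:**
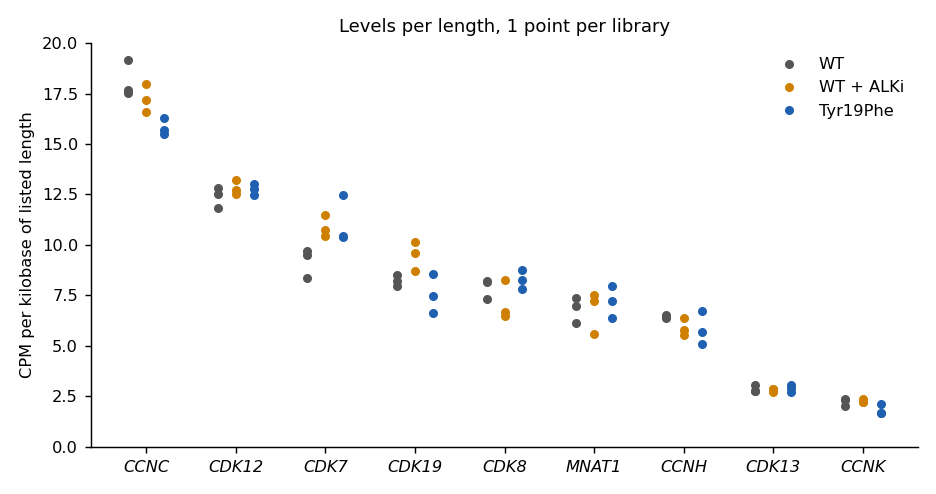
Level of each gene per kilobase of listed length (CPM per kilobase, axis from 0), with 1 point per library and the genes in descending order of their mean. CCNC lies above all others, at 15.5 to 19.1, and CDK13 and CCNK lie below all others, at 2.71 to 3.08 and 1.69 to 2.36. The level of CCNK is uncertain, since part of its exonic bases is shared with CCDC85C on the opposite strand.

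The members lie on 6 chromosomes, by the positions of the count table (hg38). CDK7 (ENSG00000134058) is on chromosome 5 at 69234795 to 69277430 and CCNH (ENSG00000134480) on the same chromosome at 87318416 to 87413019. MNAT1 (ENSG00000020426) and CCNK (ENSG00000090061) are on chromosome 14, at 60734742 to 60969953 and 99481169 to 99535044. CCNC (ENSG00000112237) and CDK19 (ENSG00000155111) are on chromosome 6, at 99542380 to 99568973 and 110609978 to 110815958. CDK8 (ENSG00000132964) is on chromosome 13 at 26254104 to 26405238, CDK13 (ENSG00000065883) on chromosome 7 at 39949646 to 40099580, and CDK12 (ENSG00000167258) on chromosome 17 at 39461511 to 39564907.

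The change of each member was set beside the median of the tested genes within 5 Mb of it, as a description. Around CCNK, on the long arm of chromosome 14, the 63 tested genes had a median of −0.24 with Tyr19Phe CDK9 on the log2 scale, close to the −0.28 of CCNK. Of these genes 52 lay below 0, 24 were called lower and 0 were called higher. Of all tested genes, 10.4% were called lower and 7.61% higher in this comparison. With the inhibitor the same segment had a median of 0.0033. MNAT1, on the same chromosome arm, lay in a segment of 60 genes whose Tyr19Phe median was −0.15, of which 18 were called lower and 1 higher, while MNAT1 itself was at 0.075. Whether the CCNK value is part of a change of its chromosome segment was not tested.

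Around CCNC the 20 tested genes had a median of −0.091 in Tyr19Phe CDK9 cells, with 2 called lower and 0 higher, beside −0.20 for CCNC. The 12 genes within 2 Mb had a median of −0.19, with 10 below 0, 1 called lower and 0 called higher. Some of the values below 0 were imprecise, such as POU3F2 (−0.98, edgeR adjusted p = 0.225). PNISR (0.083) and FBXL4 (0.037) lay above 0 and were not called. Whether the CCNC value is part of a change of its chromosome segment was not tested. Around CDK19 the 48 genes had a median of −0.038 between the Tyr19Phe CDK9 and the inhibitor-treated cells, with 2 called higher and 3 lower, beside −0.33 for CDK19. Some neighbours were lower still, such as OSTM1 (−0.53, edgeR adjusted p = 2.60e-06) and PDSS2 (−0.42, adjusted p = 0.0114). Those called higher were MARCKS (0.33, adjusted p = 0.000170) and CD24 (0.21, adjusted p = 0.000187). The 29 genes within 2 Mb of CDK19 had a median of −0.028, with 0 called higher and 0 lower. Around CDK7 the 57 genes had a median of −0.021 with the inhibitor and −0.013 with Tyr19Phe CDK9, beside 0.25 and 0.27 for CDK7, neither of which passed the test.

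**Figure D4:**
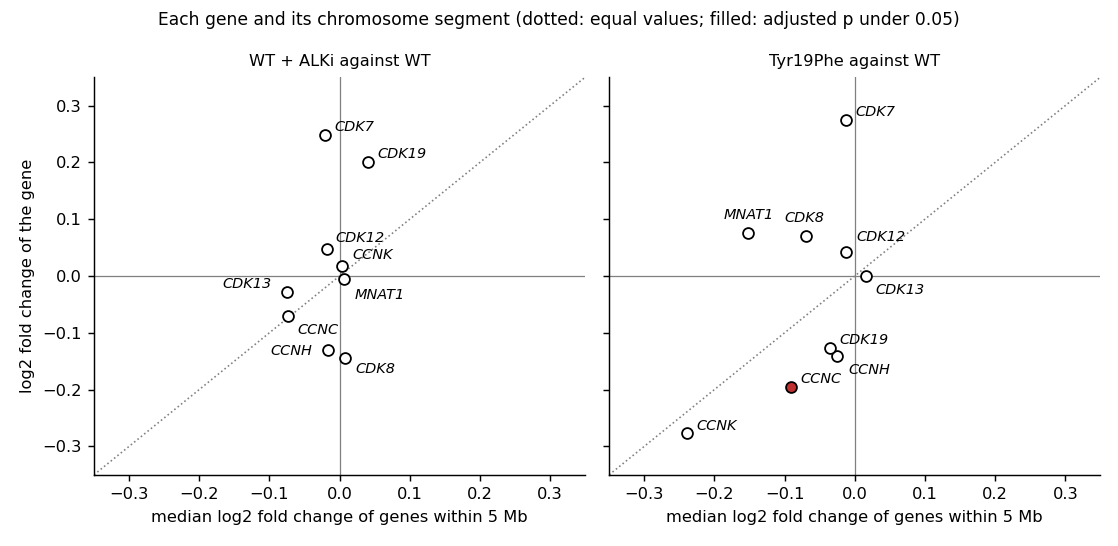
Log2 fold change of each gene (vertical axis) against the median log2 fold change of the tested genes within 5 Mb (horizontal axis), for both comparisons with WT CDK9 cells. CCNK lies near the dotted line of equal values with Tyr19Phe CDK9, at −0.28 against −0.24, and CDK7 lies at 0.25 and 0.27 against −0.021 and −0.013.

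CDK12 lies close to ERBB2, the receptor gene for which SKOV3 cells are known to carry an amplification, and its level was compared with those of the genes around it. ERBB2, 196 kb from CDK12 between gene midpoints, was at 1772, 1768 and 1858 CPM in WT CDK9 cells, at 2617, 2624 and 2634 CPM with ALK inhibitor and at 1515, 1516 and 1381 CPM in Tyr19Phe CDK9 cells. The 3 groups were fully separate. ERBB2 rose by 0.54 on the log2 scale with the inhibitor (SE 0.033, edgeR adjusted p = 2.96e-13) and fell by 0.29 with Tyr19Phe CDK9 (SE 0.033, adjusted p = 5.40e-08), where CDK12 was at 0.047 and 0.043. The segment list held 12 genes other than CDK12, of which 9 passed the filter on low counts. Of these 9, 5 were called higher and 0 lower with the inhibitor, and 0 higher and 5 lower with Tyr19Phe CDK9. Over all tested genes, 1.82% were called higher and 2.73% lower with the inhibitor. With Tyr19Phe CDK9 the shares were 7.61% higher and 10.4% lower. The counts of the segment depend on the list. Within 0.5 Mb of CDK12, where 17 genes were tested, GSDMB is not on the list and was called higher with Tyr19Phe CDK9 (0.47, edgeR adjusted p = 0.00859). PSMD3, also not on it, was called lower (−0.19, adjusted p = 0.000881).

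The 5 genes called higher with the inhibitor were PPP1R1B (1.03), STARD3 (0.34), PGAP3 (0.24), ERBB2 and MIEN1 (0.55 on the log2 scale), all on the side of CDK12 that holds ERBB2. MED1, a Mediator subunit on its other side, had log2 fold changes of −0.073 and −0.044 and was not called. MIEN1 and PGAP3 overlap ERBB2 in the positions of the count table, so part of their reads may be those of ERBB2. The PGAP3 call with the inhibitor was lost in 4 of 6 fits without 1 library (WT replicate 1 or 3, or ALK inhibitor replicate 2 or 3), with adjusted p-values up to 0.241. The 5 genes called lower with Tyr19Phe CDK9 were ERBB2, MIEN1 (−0.44), PGAP3 (−0.33), GRB7 (−0.75) and FBXL20 (−0.38 on the log2 scale). The GRB7 call was lost without WT replicate 2 or Tyr19Phe replicate 3, and that of FBXL20 in 5 of 6 such fits, all but the one without Tyr19Phe replicate 1. In other settings the FBXL20 call was kept in 4 of 8, with adjusted p-values up to 0.0703. The 9 genes had medians of 0.24 and −0.29 in the comparisons with WT CDK9 cells, and the 95% intervals of CDK12 in these comparisons reached no further than 0.15 from 0.

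**Figure D5:**
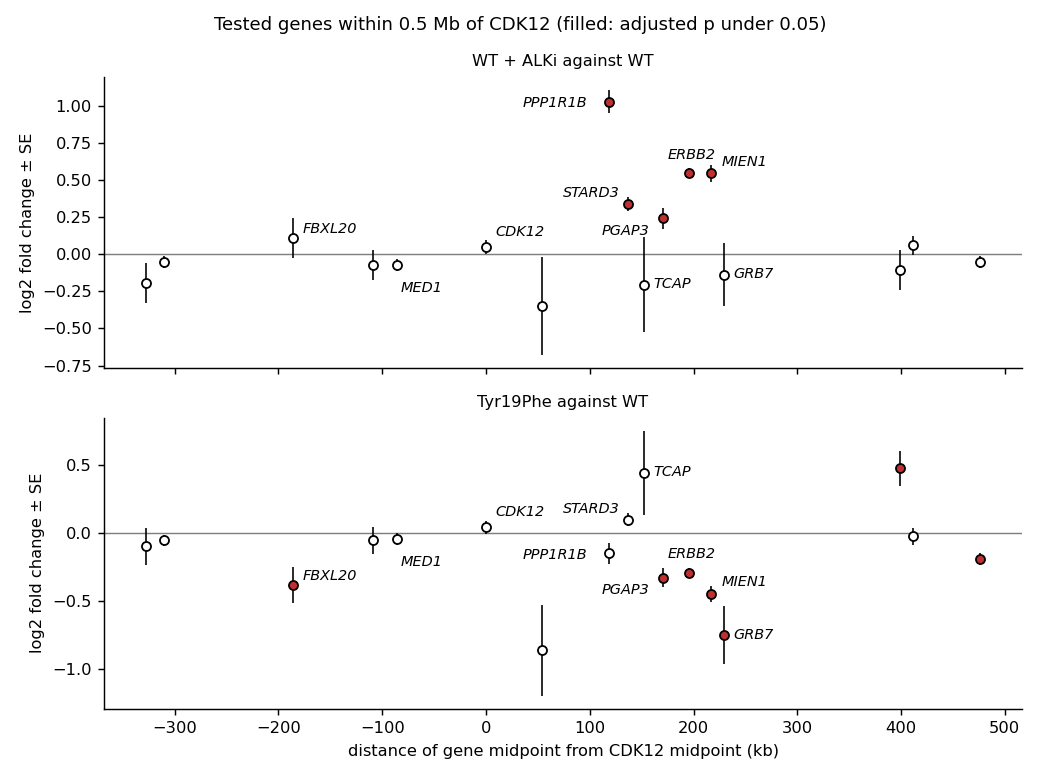
Log2 fold change ± SE of the 17 tested genes within 0.5 Mb of CDK12, by distance in kb from CDK12 between gene midpoints, with ALK inhibitor (top) and Tyr19Phe CDK9 (bottom), on vertical axes of different range. CDK12 lies at 0.047 and 0.043, ERBB2 at 0.54 and −0.29.

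For the 2 called members, the genes whose pattern over the 9 libraries was most like theirs were found by the root mean squared difference of centred log2 CPM, among 11140 genes of at least 5 CPM. For CDK19 these were PARP14 (0.058), PTPRA (0.067) and SCN2A (0.067), beside a spread of 0.17 for CDK19 itself. For CCNC they were SIN3A (0.025), USP25 (0.031) and TMPO (0.034), beside a spread of 0.093. None of these 6 genes is on chromosome 6 with the members, and their chromosomes are 3, 20, 2, 15, 21 and 12 in the order given. They are the closest by selection, and neither their closeness nor their places were tested. So few genes cannot tell whether the segments around the members changed. Pseudogenes of the members drew few reads, with at most 7 counts for CDK7P1, 0 for CCNHP1 and at most 3 for CDK8P2 in any library.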

How the data were processed

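Total RNA of 9 SKOV3 libraries was sequenced. Per the labels, the submitters' processing notes name CASAVA, HISAT2 2.0.5 and featureCounts 1.5.0-p3, with the build hg38, without saying which setting was used for strand or which annotation. The authors deposited raw counts of reads per gene, without normalization, beside gene positions and lengths. Columns were matched to samples by name, and 0 columns belonged to other samples.

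The tests used edgeR 4.0.16 under R 4.3.3. Genes passed filterByExpr (minimum count 10, minimum total 15), libraries were scaled by TMM, and 1 mean per group was fitted by glmQLFit to all 9 libraries (6 residual degrees of freedom), with Benjamini-Hochberg adjustment over all tested genes and calls under 0.05. SEs came from the F statistic and 95% intervals from the t distribution with the total degrees of freedom. Log2 CPM used a prior count of 2. DESeq2 1.42.0, other scalings, other filters, a fit of the compared groups alone, a replicate block, other call thresholds and the omission of each library were the alternatives. The code was tested on simulated data. Ratios of paralogues were tested by exact permutation. Depth was 18169050 to 29320184 counts per library.

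Replicate libraries correlated at 0.975 to 0.986 (log2 CPM) and differed by more than counting error. Deviations of libraries with the same number did not correlate across groups (−0.012 to 0.026), so libraries were not paired. The members and lists were chosen with earlier results of these data known. Named were all members, P-TEFb genes, up to 4 genes per list that were called against WT CDK9 cells, taken by adjusted p, genes that overlap members, and the 3 genes most like each called member. MED1, MED12, MED12L, POLR2A, PGAP3, GRB7, FBXL20, GSDMB, PSMD3, OSTM1, PDSS2, MARCKS, CD24, PNISR, FBXL4, POU3F2 and the markers lie outside this rule and were named after their values were seen.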

Additional observations from a re-analysis of the deposited data

Results flagged for a closer look

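The effects of the ALK inhibitor and of Tyr19Phe CDK9 on CDK19, the Mediator kinase, differed by the direct test. The log2 difference between Tyr19Phe CDK9 and inhibitor-treated cells was −0.33 (edgeR adjusted p = 0.00279), from 0.20 with the inhibitor and −0.13 with Tyr19Phe CDK9 against WT CDK9 cells. Without Tyr19Phe replicate 3 these values were −0.24 between the groups (adjusted p = 0.0445) and −0.035 with Tyr19Phe CDK9 against WT CDK9 cells (adjusted p = 0.859). CDK19 was lower in all 3 Tyr19Phe libraries than in any of the 3 inhibitor-treated libraries, and no other of the 9 members passed this test.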

How the results depend on the processing

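With an unadjusted p under 0.05, 2, 3 and 4 of the 9 members were called with the inhibitor, with Tyr19Phe CDK9 and between these groups, in place of 0, 1 and 1. For Tyr19Phe CDK9 the count was 2 with library size alone as the scale (CDK7 adjusted p = 0.0457), 0 at an adjusted p under 0.01 and 0 to 2 when 1 library was left out. Between the groups it was 1 to 2 when 1 library was left out. Over the pathway lists the count with the inhibitor was 2 at an unadjusted p under 0.05, in place of 1. A replicate block left the counts of members at 0, 1 and 1 and those of list genes at 1, 4 and 6, with CCNC at −0.19 (adjusted p = 0.0164), and it changed no call of a member. CCNC kept its call with Tyr19Phe CDK9 in 8 of 8 other scalings, filters and fits (adjusted p from 0.00961 to 0.0394), and CDK19 kept its call between the groups in 8 of 8 (0.000153 to 0.00379). No scaling moved the median of all genes by more than 0.026 on the log2 scale.

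The difference in the CDK12 to CDK13 log2 ratio changed sign when 1 library was left out, with a range of −0.0069 to 0.12 for the inhibitor and −0.039 to 0.092 for Tyr19Phe CDK9. By the longest transcript, 5 of 9 members kept their rank in level, and within 2 Mb the median around CCNC was −0.19.

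Values near 0 changed sign without a call. With the inhibitor, MNAT1 was at 0.00436 by upper-quartile scaling and 0.020 by library size, and CCNT2 at 0.0010 by library size. Between the groups, CDK12 was at 0.0063 by upper-quartile scaling and 0.0014 with at least 10 counts in every library. When 1 library was left out, values with the inhibitor ranged from −0.087 to 0.12 for MNAT1, from −0.050 to 0.025 for CDK13, from −0.042 to 0.060 for CCNK and from −0.10 to 0.031 for CCNT2. With Tyr19Phe CDK9 they ranged from −0.041 to 0.054 for CDK13 and from −0.029 to 0.11 for CCNT2. Between the groups they ranged from −0.062 to 0.070 for CDK7, from −0.13 to 0.081 for CCNH, from −0.038 to 0.16 for MNAT1, from −0.021 to 0.018 for CDK12, from −0.016 to 0.075 for CDK13 and from −0.0013 to 0.13 for CCNT2. The causes were not tested. With 3 libraries a group, the median half-width of the members' 95% intervals was 0.19 to 0.20 on the log2 scale.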
